A study of Mus musculus with 8 samples.

Results

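MicroRNAs are short RNAs that silence messenger RNAs through base pairing, and this report describes the transcripts of 10 mouse genes that make them or carry out their silencing: Drosha, Dgcr8, Xpo5, Dicer1, Ago1, Ago2, Ago3, Tnrc6a, Tnrc6b and Tnrc6c. They were taken by symbol from the deposited table and all 10 had a row, among 17597 genes. The RNA came from mouse embryonic stem cells of a Cast x 129S background, in which METTL3, the enzyme that writes N6-methyladenosine (m6A), was tagged with FKBP12 F36V. That tag is a degron, so the small molecule dTAG-13 sends the tagged protein to destruction. The labels give 8 total RNA libraries: 4 from cells given dTAG-13 for 26 hours and 4 from untreated cells, each set holding 2 libraries of clone C3 and 2 of clone H5. No library received doxycycline, and all carry an Xist allele under an inducible promoter. The labels place that TetOn promoter on the 129S allele, whereas the study's text places it on the Cast X chromosome. The labels also describe extraction of chromatin RNA, whereas total RNA is named in the molecule field and in the methods of the study.

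The values used here are a single mean per gene over all libraries, averaged by the authors after scaling each library by its size factor, and termed the mean count. No level can be given for either treatment, clone or library, so the effect of METTL3 depletion on these genes was not analysed here. In bulk RNA, fewer cells of a type and less RNA per cell cannot be told apart. There is no spread between replicates either, and no difference between genes was tested. Intervals are 95% Wilson intervals at the depth of 1 average library, whose mean counts summed to 16292717 over genes and transposable elements. They cover counting error only, and they are wider than the counting error of a mean over all libraries. The table followed its label as embryonic stem cells: all 8 pluripotency markers looked at lay above the median gene, from Klf4 at a mean count of 1415 to Pou5f1 at 11934. The cells grew on fibroblast feeders. Of 8 feeder markers, 3 lay above the median gene: Fn1 (mean count 4941), Sparc (3052) and Vim (2073). Thy1 (116) lay below it, while Pdgfrb (10.8) and the fibroblast collagen genes Col1a1 (19.8), Col1a2 (13.8) and Col3a1 (8.38) were near the floor. The share of the microRNA pathway reads that came from feeders was not tested. Mettl3 itself had a mean count of 684, in a design that removes protein and not RNA.

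In the nucleus, a primary microRNA transcript folds into a hairpin that the Microprocessor, made of the ribonuclease Drosha and its RNA-binding partner Dgcr8, cuts out. Exportin 5, the product of Xpo5, carries the hairpin to the cytoplasm together with Ran, and Dicer1 cuts it to a short duplex. An Argonaute protein keeps a single strand of the duplex and, with a TNRC6 protein as scaffold, forms the core of the RNA-induced silencing complex (RISC). The bases that pair first with a target are the seed, bases 2 to 8 of the mature microRNA. Mouse embryonic stem cells that lack Dgcr8 or Dicer1 survive but differentiate poorly, and m6A on primary transcripts has been described in other cells as a mark that aids their recognition by Dgcr8.

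The 10 genes differ in the microRNA sequences that they themselves hold. Dgcr8 is the clearest case, since the Microprocessor is known to cut hairpins within Dgcr8 messenger RNA and so lower it. RefSeq (GRCm38.p6) places a pair of hairpins in exon 2 of Dgcr8, on its own strand. The hairpin of miR-3618 lies in the 5′ UTR (chr16:18284550-18284637, minus strand) and that of miR-1306 in the coding sequence (chr16:18284239-18284317, minus strand). Their mature sequences are shown because they mark where this transcript carries a Microprocessor substrate, with the seed in capitals.
miR-3618-5p: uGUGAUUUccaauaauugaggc
miR-3618-3p: cUACAUUAaugaaaagagcaau
miR-1306-5p: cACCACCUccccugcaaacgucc
miR-1306-3p: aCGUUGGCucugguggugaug
Dgcr8 had a longest internal exon of 1000 bases, at the 93.6th percentile of coding genes. Only 2 of the other members hold an annotated hairpin: Mir693 lies in an intron of Xpo5 (chr17:46231531-46231619) and Mir5113 in the 3′ UTR of Tnrc6b (chr15:80940039-80940120). No hairpin was listed within Drosha, Dicer1, Tnrc6a, Tnrc6c or the 3 Argonaute members.

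The genes that make microRNAs were more abundant than those that form RISC. Drosha, Dgcr8, Xpo5 and Dicer1 had mean counts from 2413 to 3655, while the 6 Argonaute and TNRC6 genes had mean counts from 325 to 1487. Long transcripts gather more reads, so levels between genes are compared as mean count per kb of annotated exon. On that scale the processing genes ranged from 218 to 484 and the RISC genes from 19.6 to 117, with medians of 335 and 91.6, a 3.66-fold difference. All 4 processing genes lay above all 6 RISC genes, and this order also held when the mean count was divided by the longest transcript, by the coding sequence or by no length at all. The ratio of the medians was 5.32, 2.84 and 2.33 in these cases. The margin of the lowest processing gene over the highest RISC gene was 1.86-fold per kb of all exons. It was narrowest per kb of coding sequence, at 1.21-fold. In sum the 10 genes held a mean count of 17548, 0.120% of the reads on genes.

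**Figure D1:**
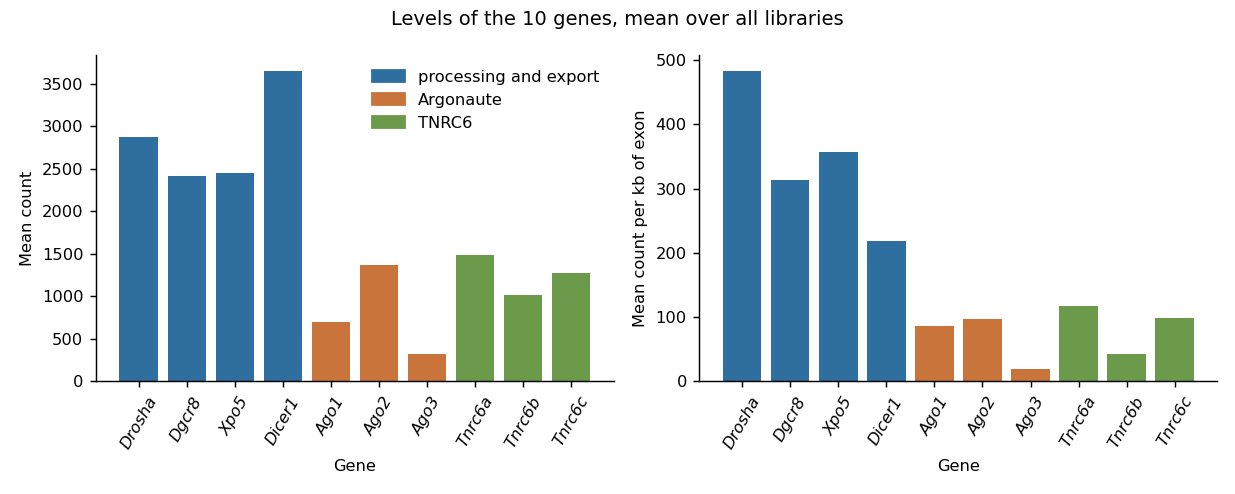
Bars show the mean count (left) and the mean count per kb of annotated exon (right) of each gene, averaged by the authors over all 8 libraries, so no error bars can be drawn. Every blue bar, for processing and export, stands above every bar of the Argonaute (orange) and TNRC6 (green) families in both panels.

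Drosha, the nuclear ribonuclease, had the highest level per kb of the 10 genes. Its mean count was 2871, which corresponds to 484 per kb (interval 466 to 502), at the 86.4th percentile of the 13464 genes whose mean count reached 10. Drosha lies on chromosome 15 (12824815 to 12935291, GRCm38, plus strand) and its longest coding transcript has 35 exons but a 3′ UTR of 168 bases, at the 11.6th percentile of coding genes. It is the only member whose 3′ UTR is shorter than the median of 939 bases.

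Dgcr8, the partner of Drosha, had a mean count of 2413 and 313 per kb (301 to 326), at the 79.5th percentile. It lies on chromosome 16 (18253948 to 18289246, minus strand). The ratio of Drosha to Dgcr8 was 1.54 per kb of all exons and 1.12 per kb of the longest transcript, but 0.670 per kb of coding sequence, so which Microprocessor subunit had the more abundant RNA cannot be read from these values. Dgcr8 is also the member most exposed to neighbours: 17.1% of its exon bases overlap other annotated genes, among them Trmt2a on the opposite strand, and 3.61% of the 81-base windows of its transcript, the length of a read, also occur in transcripts of the predicted gene Gm43555.

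Xpo5, the export receptor for the cut hairpin, had a mean count of 2448 and 357 per kb (343 to 371), at the 81.9th percentile. It lies on chromosome 17 (46202782 to 46243598, plus strand) and its transcript spans 32 exons. Ran, the small GTPase that Xpo5 needs for export and that serves nuclear transport at large, stood at 6476 per kb, 18.1-fold above Xpo5. That ratio was 14.7 per kb of the longest transcript and 38.9 per kb of coding sequence, and it was smaller with no division by length, at mean counts of 17135 for Ran and 2448 for Xpo5.

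Dicer1, the cytoplasmic ribonuclease, had the highest mean count of the 10 genes at 3655. After division by its 16750 exon bases it stood below Drosha, Xpo5 and Dgcr8, at 218 per kb (211 to 225) and the 72.2nd percentile. It lies on chromosome 12 (104687742 to 104751952, minus strand), with 27 exons and a coding sequence of 5721 bases. Of its double-stranded RNA-binding partners, Tarbp2 was at 246 per kb and Prkra at 86.7. The ratio of Dicer1 to Tarbp2 was 0.887 per kb of all exons, 0.627 per kb of coding sequence and 3.26 in mean count, so their order depended on the scale. Tarbp2 was above Prkra on every scale, from 2.84-fold per kb of all exons to 6.37-fold in mean count.

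**Figure D2:**
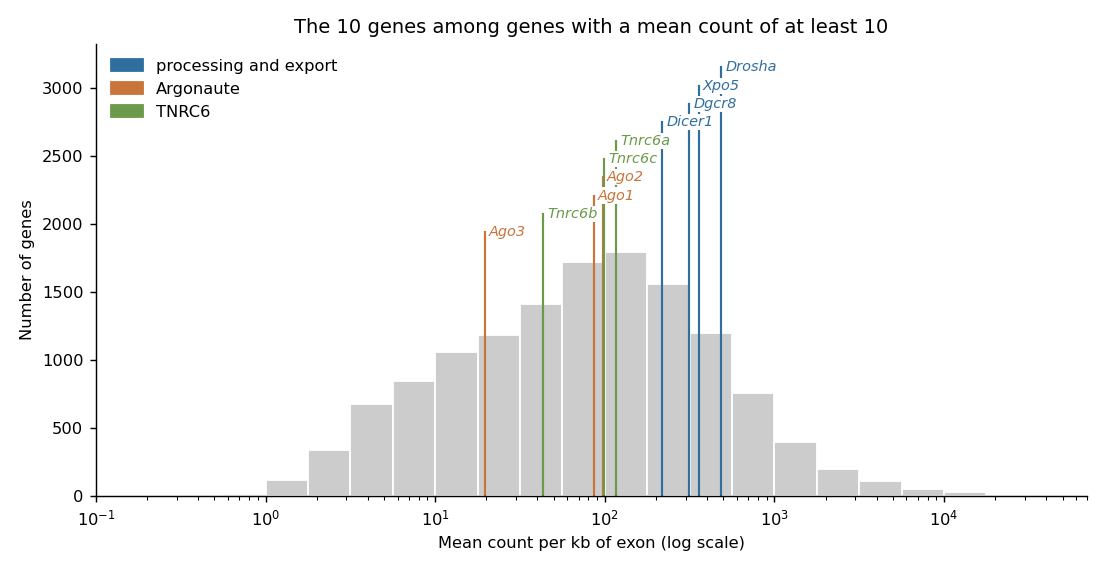
Grey bars count the genes whose mean count reached 10 by mean count per kb of exon, on a log scale, and lines mark the 10 genes by family. The processing genes stand to the right of the peak between 218 and 484, and Tnrc6b and Ago3 stand below the median gene at 81.2.

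Among all genes the 10 were spread across the range. The median gene was at 81.2 per kb and the upper quartile at 251. Of the 10 genes 8 lay above that median and 3, namely Drosha, Xpo5 and Dgcr8, above the upper quartile. Tnrc6b and Ago3 lay below the median. The place of a gene moved with the length used. Per kb of coding sequence Drosha (71.9th percentile) and Xpo5 (71.4th) lay below the upper quartile and Dgcr8 (79.4th) above it. Per kb of the longest transcript Dicer1 (76.9th) lay above the upper quartile too. Ago1 (47.3rd) and Ago2 (47.9th) fell below the median per kb of the longest transcript, and Tnrc6c (46.4th) did so per kb of coding sequence. With no division by length Tnrc6b (73.6th) lay above the median.

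The Argonaute family was dominated by Ago2 and Ago1. Ago2, the family member known for cutting a fully paired target, had a mean count of 1365 and 97.3 per kb (92.3 to 103). Ago1 had a mean count of 697 and 85.9 per kb (79.7 to 92.5). Their counting intervals overlap at the edge, and Ago2 was the higher of the pair with each length and with none. Ago3 was far lower, with a mean count of 325, the lowest of the 10 genes, and 19.6 per kb (17.6 to 21.9). Ago4, which completes the family but is not among the 10 genes, had a mean count of 15.8 and 2.28 per kb.

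Of the summed Argonaute level per kb, Ago2 took 47.4%, Ago1 41.9%, Ago3 9.56% and Ago4 1.11%. The balance of Ago2 and Ago1 turned on the length used, with a ratio of 1.13 per kb of all exons, 1.03 per kb of the longest transcript and 1.95 per kb of coding sequence. The annotated 3′ UTRs differ in length, at 11064 bases in Ago2 and 4491 in Ago1 against nearly equal coding sequences of 2583 and 2574 bases. Ago3 stayed lowest of the 3 members on every scale, with Ago2 between 4.20-fold and 4.96-fold above it. The files do not show which 3′ UTR length these cells used.

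Ago1, Ago3 and Ago4 are neighbours on the minus strand of chromosome 4 (Ago3 at 126331704 to 126429556, Ago1 at 126435012 to 126468583, Ago4 at 126489541 to 126533472), with 5455 bases between Ago3 and Ago1 and 20957 between Ago1 and Ago4. Ago2 lies apart on chromosome 15 (73095844 to 73184935). The neighbours thus differed widely in level, from 85.9 per kb for Ago1 to 2.28 for Ago4. Shared sequence was small: 90 windows of 81 bases occur in both Ago1 and Ago3, 1.26% of those of the Ago1 transcript, and 51 windows of Ago2 (0.372%) occur in the predicted gene Gm6088. The authors kept only uniquely placed reads, and how many reads of these windows were lost was not tested.

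**Figure D3:**
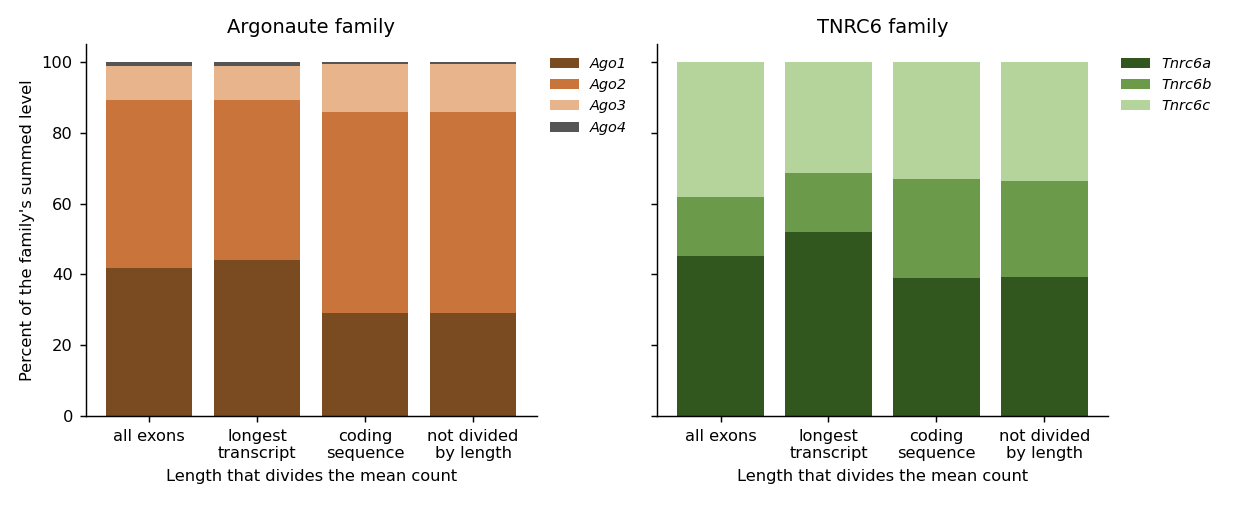
Stacked bars show each gene's percent of the summed level of its family, Argonaute (left) and TNRC6 (right), with the mean count divided by each of 3 lengths or by none. Ago2 takes 45.2% to 56.8% of the Argonaute level and Ago4 at most 1.11%, while Tnrc6b is the smallest TNRC6 share throughout, from 16.6% to 27.9%.

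The TNRC6 proteins bind Argonaute through tryptophan-glycine repeats and recruit deadenylases to the target. Tnrc6a was the most abundant, with a mean count of 1487 and 117 per kb (111 to 123). Tnrc6c followed with 1268 and 98.8 per kb (93.4 to 104), within the counting interval of Ago2. Tnrc6b had a mean count of 1019, but its 23677 exon bases, the most of the 10 genes, brought it to 43.0 per kb (40.5 to 45.8). Per kb, Tnrc6a held 45.2% of the family, Tnrc6c 38.2% and Tnrc6b 16.6%.

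The order Tnrc6a, Tnrc6c, Tnrc6b was the same with each length, and only the distance varied. Tnrc6a exceeded Tnrc6b 2.72-fold per kb of all exons and 1.39-fold per kb of coding sequence. The genes lie on separate chromosomes: Tnrc6a on 7 (123123885 to 123195296), Tnrc6b on 15 (80711313 to 80941085) and Tnrc6c on 11 (117654289 to 117763439), all on the plus strand. No 81-base window of any TNRC6 transcript occurred in a gene elsewhere in the genome. Genes that overlap a TNRC6 gene were left out of that count. On the same strand, Mir5113 overlaps 82 exon bases of Tnrc6b and Gm45846 overlaps 143 of Tnrc6a.

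The transcripts of the 10 genes share a long build. All 10 had a coding sequence above the median of 1425 bases, taken over 13037 coding genes whose mean count reached 10, and 9 had a 3′ UTR above the median. The 3′ UTRs of Ago3 (12742 bases), Tnrc6b (11609) and Ago2 were each at the 99.9th percentile. Long internal exons, where m6A is concentrated in mammalian messenger RNA, set the members apart from each other: Tnrc6c (2601 bases), Tnrc6a (2583) and Tnrc6b (2340) were at or above the 98.6th percentile, Dgcr8, Dicer1 (871 bases) and Drosha (834) were above the 91st percentile, and Ago1, Ago2 and Xpo5 all had 200 bases as their longest, at the 45.5th percentile.

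METTL3 methylates A within a short sequence context of which GGACT is the best known form. GGACT was counted on the sense strand of 1 transcript per gene. It occurred in 91.8% of the 13037 transcripts, with a median of 1.05 per kb, and in all 10 members. Its density was highest in Tnrc6c (1.81 per kb, 16 motifs, 83.7th percentile) and Xpo5 (1.57 per kb, 8 motifs), and lowest in Dgcr8 (0.463 per kb, 2 motifs), Tnrc6a (0.489 per kb, 4 motifs) and Drosha (0.656 per kb, 3 motifs). Of the 10 genes 6 were above the median. Both Microprocessor subunits were in the low group. Within 500 bases of the stop codon, GGACT occurred in Xpo5 (4 of its 8 motifs), Dicer1 (2), Ago2 (1) and Tnrc6a (1), and in none of the other 6 members. The share of all 13037 transcripts with GGACT in that window was not counted, so these counts cannot be placed among coding genes. Tnrc6a and Tnrc6c held 4 and 16 motifs over the whole transcript, and 3 and 9 within coding sequences of 5691 and 5703 bases. A motif says only that the letters are there, and whether any of them was methylated was not measured here.

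**Figure D4:**
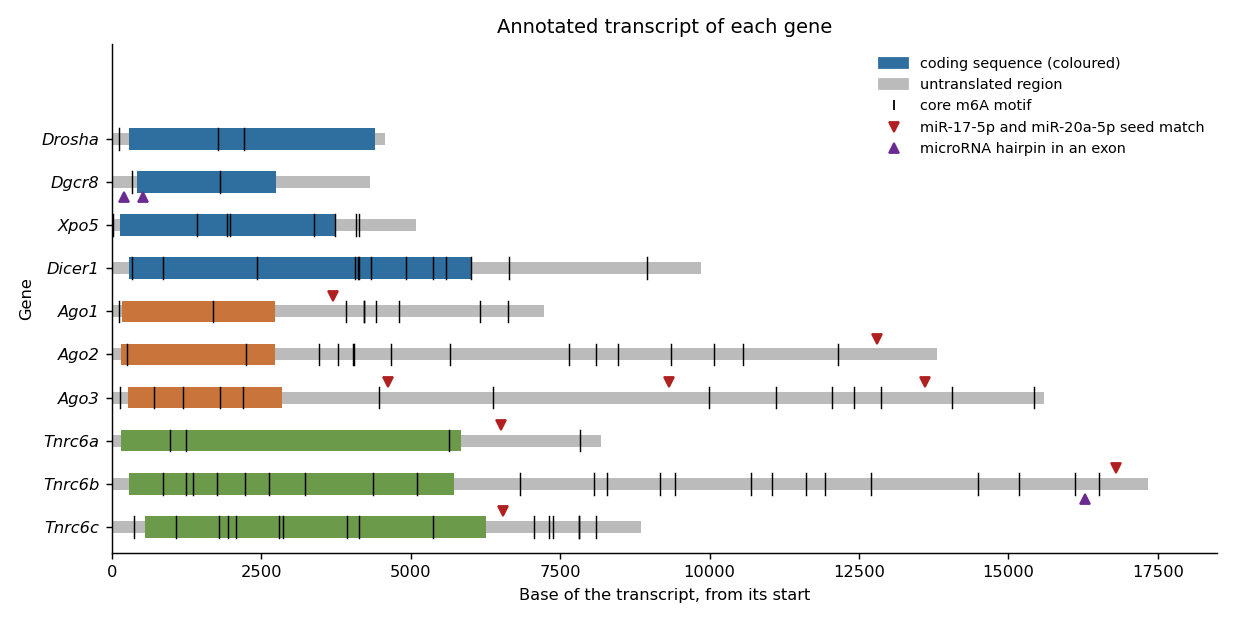
Each row draws the annotated coding transcript of a gene to scale, in bases from its start, with the coding sequence thick and coloured, untranslated regions thin and grey, GGACT as black ticks, seed matches of miR-17-5p and miR-20a-5p as red triangles and exonic microRNA hairpins as purple triangles. Red triangles occur in all 6 RISC genes, and the purple triangles of Dgcr8 sit near its start.

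A list of 5 host genes from which microRNAs are cut was read too, and 4 of them had a row. Mirg, which holds part of the microRNA cluster of the imprinted region on chromosome 12, had a mean count of 1292 and 177 per kb. Mir17hg, the host of the miR-17 to miR-92 cluster, reached 1050 and 297 per kb, the highest level of the listed host genes. It lies on chromosome 14 (115042879 to 115046727, plus strand). Xpo5 (357 per kb) and Dgcr8 (313 per kb), which also hold hairpins, were not on that list and stood higher. Mir22hg was lower (56.0, 29.1 per kb) and Dnm3os was nearly absent at a mean count of 0.816. Mir155hg had no row, so no level can be given for it. The table also had 8 rows of single microRNA genes, led by Mir297a-3 at a mean count of 29.1, Mir680-2 at 2.78 and Mir466f-2 at 1.90. These are reads on hairpins and their primary transcripts in a library of long RNA, not levels of mature microRNAs.

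Mir17hg was abundant and its products are well known, so their seeds were looked up in the 3′ UTRs of the 10 genes. RefSeq lists 11 mature sequences from its 6 hairpins, with 9 different seeds. The main products fall into seed groups, shown with the seed in capitals. The sequences of miR-17-5p and miR-20a-5p share a seed, as do those of miR-19a-3p and miR-19b-3p.
miR-17-5p: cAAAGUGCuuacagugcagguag
miR-20a-5p: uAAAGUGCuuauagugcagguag
miR-18a-5p: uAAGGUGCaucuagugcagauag
miR-19a-3p: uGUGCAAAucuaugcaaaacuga
miR-19b-3p: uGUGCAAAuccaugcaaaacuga
miR-92a-3p: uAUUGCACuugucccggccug

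The match to the seed of miR-17-5p and miR-20a-5p, GCACTTT on the sense strand, was present in the 3′ UTRs of all 6 RISC genes and of none of the 4 processing genes. The RISC genes have 44839 bases of 3′ UTR in all and the processing genes 6920, so the RISC genes offer far more sequence to search. Ago3 had 3 matches and the other RISC genes had 1 each. A match of this kind was found in 13.2% of 12822 3′ UTRs of coding genes, at 0.105 per kb, against 0.155 per kb in the 10 genes. A stretch around a match in each RISC gene is shown, GRCm38 and 5′ to 3′ on the strand of the gene, with the 7 matching bases in capitals.
Ago1 (chr4:126438520-126438548, minus strand): ccattgacatttGCACTTTcagacgtgac
Ago2 (chr15:73096825-73096853, minus strand): ctcagagctgttGCACTTTctctgtaatc
Ago3 (chr4:126343690-126343718, minus strand): tcagggaactttGCACTTTgtaagtcatg
Tnrc6a (chr7:123193607-123193635, plus strand): aggacgggccctGCACTTTgaacaggctt
Tnrc6b (chr15:80940535-80940563, plus strand): cacagaaactagGCACTTTggtggttcac
Tnrc6c (chr11:117761129-117761157, plus strand): ctatcatgaaggGCACTTTtcagattgtg

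The miR-19 seed match, TTTGCAC, was found in more of the 10 genes than any other of the 9 matches. It occurred in 8 of the 10 genes, all but Drosha and Xpo5, with 12 matches in all and 4 of them in Tnrc6b. That is 0.232 per kb, against 0.0943 per kb over all 3′ UTRs, of which 11.9% held a match. The 3′ UTRs of 9 of the 10 genes are longer than the median of 939 bases, so the number of genes is not comparable with that 11.9%. The letters of both motifs can overlap: 3 of the matches to GCACTTT, in Ago1 and Ago3, share bases with a match to TTTGCAC, as the Ago1 and Ago3 stretches above show. By contrast the miR-92a-3p match, GTGCAAT, was found only in Ago3 among the 10 genes (2 matches) and in 6.79% of all 3′ UTRs. Its density was 0.0386 per kb in the 10 genes against 0.0509 over all 3′ UTRs. The other seeds lay on both sides of that comparison. For miR-17-3p the densities were 0.116 and 0.118, and for miR-18a-3p 0.193 and 0.138. Over the 9 seeds the genes ranged from a single match in Drosha, Dgcr8 and Xpo5 to 12 in Ago2, 12 in Tnrc6b and 14 in Ago3. Their 3′ UTRs ranged from 168 bases in Drosha to 12742 in Ago3, so these counts do not compare the genes at equal length. A match describes the sequence and is no evidence that a microRNA acts on it in these cells.

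Other genes of the pathway were read from a list by role. Of 41 listed genes 40 had a row, and 33 of these lay above the median gene, with a median of 377 per kb. All 9 cofactors of the Microprocessor and binders of primary microRNAs lay above it. The RNA helicase Ddx5 was the highest, at 2854 per kb, and 7 of the 9 exceeded Drosha. Hnrnpa2b1, which has been described as a reader of m6A on primary microRNAs, stood at 929 per kb, and Srrt, which links the cap-binding complex to the Microprocessor, at 838.

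Genes that load or turn over RISC were led by the chaperone genes Hsp90aa1 (27297 per kb) and Hsp90ab1 (13611 per kb), both of which serve many other clients. Zswim8, of the ubiquitin ligase that removes Argonaute bound to highly paired targets, was the lowest of this group at 22.1 per kb, near Ago3. All 11 genes for proteins associated with Argonaute or TNRC6 lay above the median, from Limd1 at 90.0 to Pabpc1, the poly(A)-binding protein that TNRC6 contacts, at 1664. Trim71, a stem cell regulator known to meet Ago2, was at 365 per kb.

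The genes that control the let-7 precursor were uneven. Lin28a, which binds the let-7 hairpin and keeps it from Dicer1 in stem cells, was at 1622 per kb, 30.7-fold above its paralogue Lin28b at 52.8. That ratio was 20.9 per kb of the longest transcript, 17.5 per kb of coding sequence and 13.5 in mean count. The uridyl transferases that tail the bound hairpin, Zcchc11 (also Tut4) and Zcchc6 (also Tut7), were at 117 and 50.9 per kb. Dis3l2, the nuclease that degrades the tailed hairpin, was at 34.7 per kb, the lowest of this group.

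**Figure D5:**
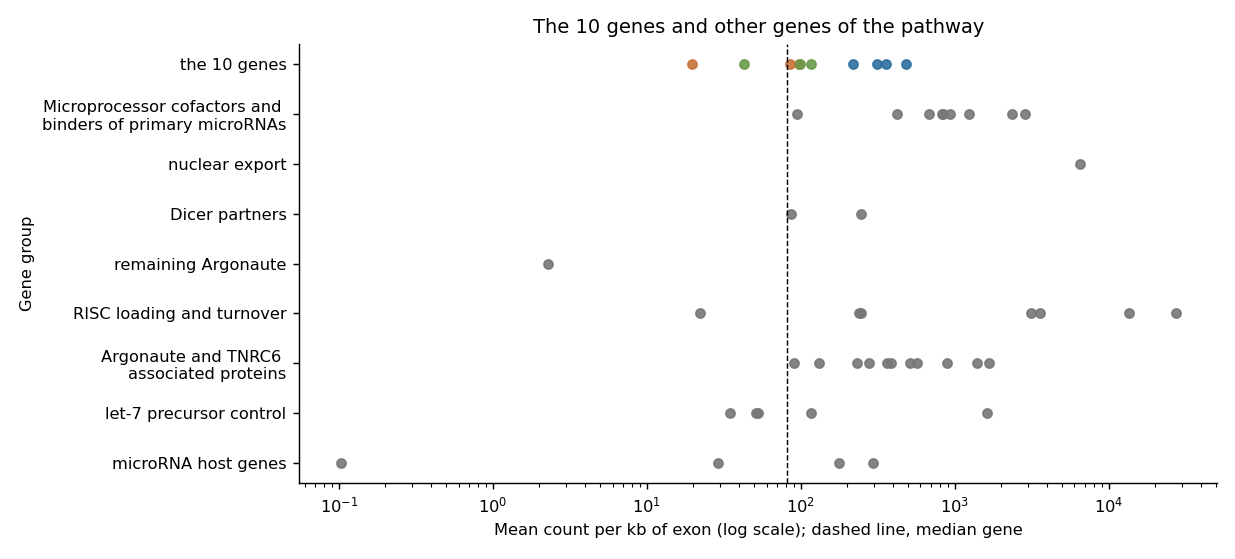
Each point is a gene, placed by mean count per kb of exon on a log scale, in rows by role, and the dashed line marks the median gene at 81.2. The 10 genes, coloured by family as in the plot of their levels, span 19.6 to 484, below most cofactors of the Microprocessor and above Ago4 at 2.28.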

How the data were processed

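The authors removed ribosomal reads, aligned the remaining pairs to the masked mm10 genome, kept unique alignments, removed duplicates with Picard and counted genes and transposable elements with TEtranscripts at its default settings. The gene annotation was that of the UCSC genome browser for mm10, and which of its tracks was counted is not given in the sources used here. Whether the counting used strand is uncertain. The deposited signal column is the mean read count over all libraries after division by size factors, and it is the only column used. The remaining columns hold the authors' own comparison of both groups (log2 fold change, its standard error, a statistic, a p-value and its adjusted form) and were not used, so no test between groups was run. No column per library was analysed.

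Gene symbols were matched to GENCODE vM21 (GRCm38, the build of mm10): 16660 directly and 718 through a synonym, while 34 were ambiguous and 185 had no match, so 17378 genes (98.8%) had a length. The mean count was divided by the length of the union of a gene's exons. Percentiles are among the 13464 of these genes whose mean count reached 10, with ties at the midpoint. The transcript with the longest coding sequence gave UTRs, exons and motifs. Wilson intervals came from scipy 1.17.1 in Python 3.11.15, and the functions were tested on made-up genes. Mature microRNA sequences are from RefSeq, and target stretches from GENCODE transcripts. The 10 genes and the lists were chosen with earlier results of these data known. The text names all 10 genes, the highest and lowest gene of each pathway group, the 3 microRNA rows with the highest mean count, Mettl3 and cell type markers; other pathway genes were named after their values were seen, and a gene that the rule names is not reported here. Alternatives were 2 other lengths, no length, other sets of genes and another total.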

Additional observations from a re-analysis of the deposited data

How the results depend on the processing

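The Ago2 share of the Argonaute level, 47.4% with all exons, was 45.2% with the longest transcript, 56.7% with the coding sequence and 56.8% with no division by length. The Tnrc6b share of the TNRC6 level, 16.6%, was 16.8%, 27.9% and 27.0% in the same order. The median level of the 10 genes, 108 per kb of all exons, was 146 per kb of the longest transcript, 400 per kb of coding sequence and 1426 with no division, which are different scales. The median per 1000000 reads, 87.5, was 97.8 when transposable elements were left out of the total. From 6 to 9 of the 10 genes lay above the median gene under the other lengths and sets of genes, against 8. The UCSC annotation that the authors name may have other exons than GENCODE, which would move the levels per kb. No replicate could be left out, and no test was made. No paired analysis was possible because the values used here are a single mean over all libraries. Depth limits the lowest genes most: Ago4, at a mean count of 15.8, carries the widest relative counting interval of the Argonaute family.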
